A study of Mus musculus with 3 samples.

Results

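The cells described here are Flt3-positive progenitors in which neither Dntt nor Elane was counted. They were chosen from measured counts: a kept cell was a member if it had at least 2 unique molecular identifiers (UMIs, one per captured transcript) of Flt3 and 0 UMIs of both Dntt and Elane. Of the 3470 kept cells, 406 met the rule (11.7%). They came from bone marrow cells sorted as lineage-negative, Sca1-positive and Kit-positive (LSK cells, the compartment of stem cells and multipotent progenitors). The mice were 2 labelled Helios-deficient and 2 labelled WT, and the labels do not state their age, the deleted part of the gene or how the deletion was driven. Helios is a zinc finger transcription factor encoded by Ikzf2. The cells carried barcoded antibodies to Flt3 (CD135), CD150, CD48 and CD41 and 1 hashtag per mouse, and they were pooled and loaded in 1 droplet run of a 3 prime chemistry. No further treatment is named. The mouse served as the replicate, with n = 2 for each genotype.

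Helios-deficient mice contributed 48 and 71 members, and wild-type mice 171 and 116. Their RNA summed to 517930 and 742756 UMIs in Helios-deficient mice and 1551432 and 1120691 UMIs in wild-type mice. A single UMI in the smallest sum was therefore a coarser step than in the largest one. Expression is given as CPM, a gene's UMIs scaled to 1000000 UMIs of the same mouse in the named class of cells. The mRNA, antibody and hashtag libraries gave counts for the same 4108 barcodes, so all 3 readouts describe the same cells. The filter behind the authors' list of kept cells is not given in the sources used here, and 28 of the 372 single-mouse barcodes outside that list also met the member rule.

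Flt3 encodes the receptor tyrosine kinase for FLT3 ligand. In mouse bone marrow its surface level rises as multipotent progenitors lose long-term self-renewal and megakaryocyte and erythroid potential, and Flt3-high LSK cells hold the lymphoid-primed multipotent progenitors. Dntt encodes terminal deoxynucleotidyl transferase, which adds nucleotides at antigen receptor gene joints and marks early lymphoid priming, while Elane encodes neutrophil elastase, a granule protease that marks granulocyte priming. Cells with Flt3 RNA but neither of these transcripts therefore lack the most direct single-gene sign of either priming in their counts, although a transcript that was not captured cannot be told apart from one that was not there.

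The members were set beside all 3064 other kept cells and beside 2 classes that share part of the rule. Flt3-low cells had 0 or 1 Flt3 UMI and neither Dntt nor Elane (1952 cells). Flt3-high cells with Dntt or Elane had at least 2 Flt3 UMIs and at least 1 UMI of either gene (694 cells). The rule fixed Flt3, Dntt and Elane, so their values are a description. In members, Flt3 stood at 245 and 260 CPM in Helios-deficient mice, against 303.6 and 283 CPM in wild-type mice. It stood at 21.5 to 35.7 CPM over the 4 mice in Flt3-low cells and at 297 to 388 CPM in Flt3-high cells with Dntt or Elane. Most members lay close to the threshold: 232 had 2 Flt3 UMIs, 102 had 3, 44 had 4 and 28 had 5 or more, with a maximum of 9. Just outside it, 501 cells without Dntt or Elane had 1 Flt3 UMI, and 160 cells with at least 2 Flt3 UMIs had a single UMI of Dntt and Elane together. The median UMI count per cell was 8060.5 in members, 7403 in Flt3-low cells and 8818 in Flt3-high cells with Dntt or Elane, so members were deeper than the first class and shallower than the second.

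The Flt3 count was not spread evenly over all kept cells. At least 2 Flt3 UMIs were found in 7.37% of the 190 cells with 3 or more UMIs of the platelet factor gene Pf4 (exact binomial 95% interval 4.09 to 12.1%). The share was 4.62% among the 65 cells with at least 2 UMIs of the erythroid genes Car1 or Klf1 (0.962 to 12.9%). It was 33.6% among the remaining 3222 kept cells (32.0 to 35.3%), although the Pf4 and the Car1 or Klf1 cells were deeper, at medians of 11478 and 13119 against 7768 UMIs. Of the 406 members, 9 were among the Pf4 cells and 2 among the Car1 or Klf1 cells. Intervals cover counting error only.

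The label of the cells came with the markers Wfdc17, Wfdc18, Satb1, Sdc1 and Ccl3, which were picked with results of these cells known, so their levels are a description. Wfdc17 and Wfdc18 encode small secreted proteins with a WAP four-disulfide core domain, Satb1 a chromatin organiser needed for lymphoid development, Sdc1 the heparan sulfate proteoglycan syndecan-1, and Ccl3 a chemokine of myeloid cells. In members, Wfdc17 stood at 448 and 407 CPM in Helios-deficient mice, against 254 and 430 CPM in wild-type mice. In Flt3-low cells it stood between 48.5 and 85.4 CPM, and in Flt3-high cells with Dntt or Elane between 586 and 957 CPM. The 3 classes did not overlap for Wfdc17, and the members lay in the middle. By test, Wfdc17 passed narrowly against Flt3-low cells (edgeR adjusted p = 0.046). It did not pass against Flt3-high cells with Dntt or Elane (edgeR adjusted p = 0.080). Satb1 showed the same order, with 42.5 and 44.4 CPM in Helios-deficient and 80.6 and 91.0 CPM in wild-type members, 20.1 to 27.3 CPM in Flt3-low cells and 115 to 174 CPM in Flt3-high cells with Dntt or Elane. Wfdc18 averaged 21.1 ± 5.0 CPM in members, against 3.31 ± 2.34 CPM in Flt3-low cells and 46.9 ± 14.1 CPM in Flt3-high cells with Dntt or Elane (SD, n = 4 mice). Sdc1 averaged 14.5 ± 4.1 CPM in members, against 5.69 ± 3.85 and 35.8 ± 20.8 CPM in these 2 classes. Ccl3 averaged 33.3 ± 7.8 CPM in members, against 9.15 ± 1.80 CPM in Flt3-low cells, and its level of 43.9 ± 19.8 CPM in Flt3-high cells with Dntt or Elane overlapped with the members. Set against all other kept cells, Satb1 and Sdc1 were no higher in members: Satb1 averaged 64.6 ± 24.8 against 63.8 ± 12.4 CPM and Sdc1 14.5 ± 4.1 against 14.4 ± 8.5 CPM. Wfdc17 and Wfdc18 did not pass against all other kept cells either (edgeR adjusted p of 0.70 and 0.49), and for Wfdc17 the members of the first wild-type mouse had 254 CPM, against 260 CPM in its other cells. Ccl3 was the marker called there, and its call was lost without 1 of the mice.

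**Figure D1:**
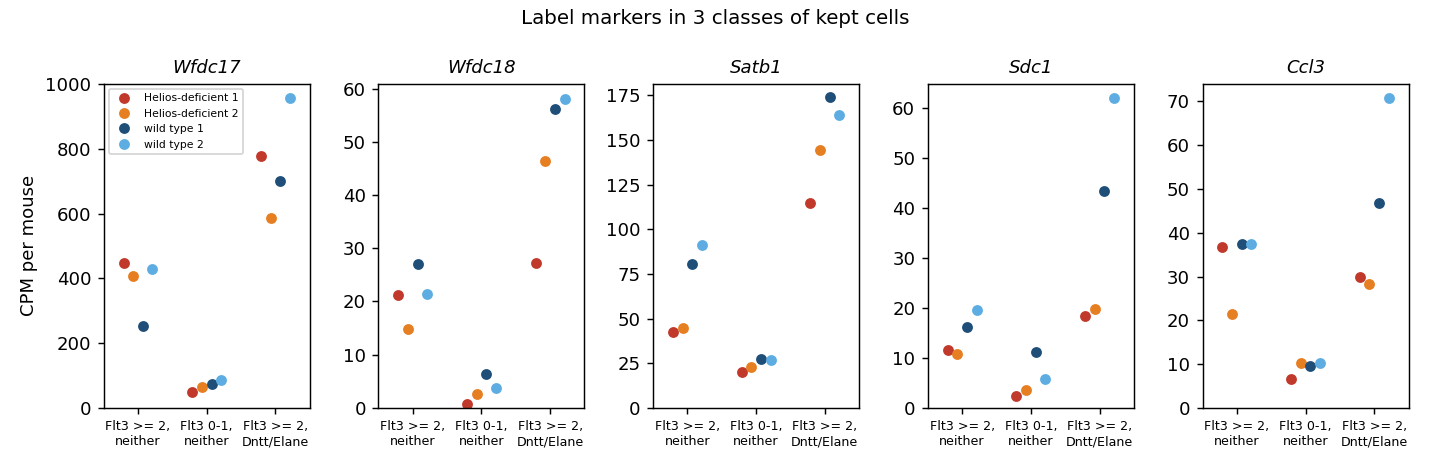
CPM of the 5 label markers in members (left), Flt3-low cells (middle) and Flt3-high cells with Dntt or Elane (right), 1 point per mouse, linear axes from 0. For Wfdc17 and Satb1 the members of every mouse lie between the other classes, and for Ccl3 the members overlap with the right-hand class.

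In single members the markers were patchy. At least 1 UMI of Wfdc17 was counted in 261 of 406 members (64.3%), against 23.0% of Flt3-low cells and 84.9% of Flt3-high cells with Dntt or Elane. The shares for Satb1 were 40.1% in members, against 16.2% and 71.0% in those classes, and for Ccl3 20.7%, against 6.45% and 29.0%. Members with a Wfdc17 UMI had a median of 7991 UMIs in all and those without had 8141, so this share did not follow depth among members. None of the 5 markers was counted in 87 members, 1 in 128, 2 in 112, 3 in 58, 4 in 21 and all 5 in none.

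Wfdc17, Wfdc18 and Ccl3 lie near each other on mouse chromosome 11, and the bases before their starts are shown because these neighbours were all higher in members than in Flt3-low cells. On GRCm38.p6, the assembly behind the authors' mm10 build, Ccl3 spans 83647843 to 83649378 on the minus strand. Wfdc17 spans 83704056 to 83706269 and Wfdc18 spans 83709004 to 83711360, both on the plus strand. The 250 bases before each start are given 5′ to 3′ on the strand of the gene, from RefSeq (chr11:83703806-83704055, chr11:83708754-83709003 and chr11:83649379-83649628 in the order shown), with motif matches in capitals.
Wfdc17: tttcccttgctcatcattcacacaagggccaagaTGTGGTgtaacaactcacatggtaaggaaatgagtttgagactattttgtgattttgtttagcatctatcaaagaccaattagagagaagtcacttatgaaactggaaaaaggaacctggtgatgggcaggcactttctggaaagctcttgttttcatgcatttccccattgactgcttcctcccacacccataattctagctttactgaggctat
Wfdc18: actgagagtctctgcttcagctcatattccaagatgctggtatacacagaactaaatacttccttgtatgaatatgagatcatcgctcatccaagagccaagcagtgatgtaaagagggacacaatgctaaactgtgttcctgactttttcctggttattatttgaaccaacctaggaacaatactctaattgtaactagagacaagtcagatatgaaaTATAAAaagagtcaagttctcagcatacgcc
Ccl3: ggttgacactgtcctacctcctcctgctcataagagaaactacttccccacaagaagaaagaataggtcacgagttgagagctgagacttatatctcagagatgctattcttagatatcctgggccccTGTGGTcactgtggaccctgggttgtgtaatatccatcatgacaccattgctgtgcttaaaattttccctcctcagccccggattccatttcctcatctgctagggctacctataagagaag
Both strands were searched for 4 motifs. The RUNX core TGTGGT occurred before Wfdc17 and Ccl3, and the TATA box TATAAA occurred before Wfdc18. The Ikaros family core TGGGAA and the PU.1 motif GAGGAAGT occurred in none of the 3 windows. Over all 32851 promoters of this length in the same table, 14.0% held the RUNX core, 12.4% the TATA box, 21.6% the Ikaros core and 2.44% the PU.1 motif, so none of these matches is rare. Ccl4, a chemokine gene next to Ccl3 whose annotated span overlaps it, had 230 UMIs in members (58.5 CPM), 466 in Flt3-low cells (27.5 CPM) and 340 in Flt3-high cells with Dntt or Elane (46.9 CPM). Members over Flt3-low cells differed by 1.12 on the log2 scale for Ccl4, with an edgeR adjusted p of 0.58. Whether reads of this overlap were told apart by strand is not given in the sources used here.

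Below the threshold of the rule, the same genes already moved with the Flt3 count. Among cells without Dntt or Elane, pooled Wfdc17 stood at 49.4, 130, 276, 438 and 508 CPM at 0, 1, 2, 3 and at least 4 Flt3 UMIs. Satb1 stood at 17.3, 46.4, 58.3, 74.7 and 109 CPM over the same steps. The summed lymphoid priming list ran from 1315 CPM at 0 through 1605, 1901 and 2284 to 2499 CPM at 4 or more. The megakaryocyte list ran the other way, through 1174, 607, 444, 368 and 302.2 CPM. Itga2b, which encodes CD41, stood at 80.6, 30.4, 24.5, 11.6 and 15.0 CPM, with its widest gap between 0 and 1 UMI. The members are the upper end of this graded range. The pooled Satb1 values hide a spread between mice. At 4 or more UMIs Satb1 stood at 40.2 and 36.8 CPM in 6 and 9 cells of Helios-deficient mice. In 33 and 24 cells of wild-type mice it stood at 106 and 166 CPM. The Helios-deficient values rest on very few cells and Satb1 UMIs, and Satb1 did not pass between genotypes in all members. These steps share cells, depth and the Flt3 count itself with the rule and are a description.

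**Figure D2:**
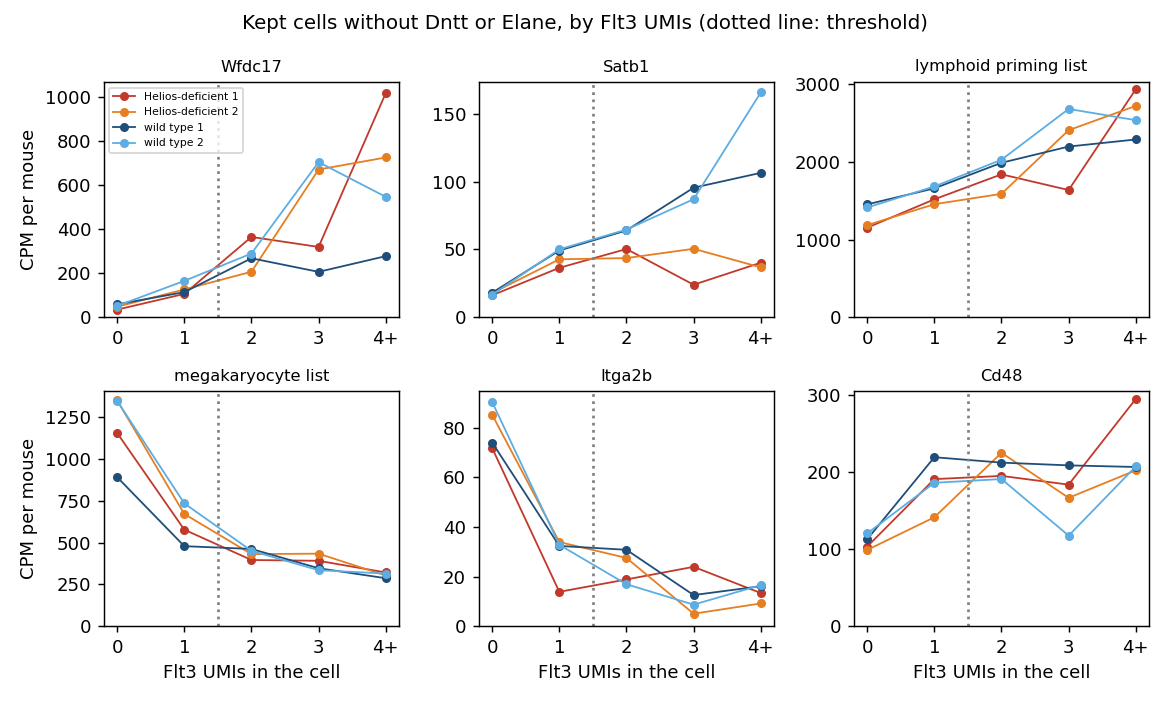
CPM of 4 genes and 2 summed gene lists against the Flt3 UMI count per cell, in kept cells without Dntt or Elane, 1 line per mouse, with the member threshold dotted. Wfdc17 and the lymphoid priming list lie higher and the megakaryocyte list and Itga2b lower toward the right, while Satb1 goes on increasing past 1 UMI in the wild-type mice and stays between 24.0 and 50.5 CPM in the Helios-deficient mice from 1 UMI on.

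Members were next tested against Flt3-low cells, which differ from them in the rule by the Flt3 count. Members had higher RNA of lymphoid and myeloid genes and much lower RNA of megakaryocyte and erythroid genes. Clec12a, an inhibitory lectin receptor of myeloid cells, stood at 32.8 and 20.2 CPM in Helios-deficient and 30.3 and 30.3 CPM in wild-type members. In Flt3-low cells it stood at 2.05, 3.03, 8.11 and 7.46 CPM, so the classes did not overlap. The change was 2.30 on the log2 scale (SE 0.23, edgeR adjusted p = 2.2e-13). Pf4, the platelet factor of megakaryocytes, stood at 19.3, 18.9, 20.6 and 42.8 CPM in members of the 2 Helios-deficient and 2 wild-type mice, against 262, 338, 136 and 447 CPM in their Flt3-low cells. Members and Flt3-low cells did not overlap (log2 fold change -3.38, SE 0.10, edgeR adjusted p = 6.8e-42). Across all 10088 genes tested, 345 were higher in members (3.42%) and 281 lower (2.79%), together 626 genes (6.21%).

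Other genes that rose over Flt3-low cells included Itgb5, an integrin beta chain (18.6 ± 3.3 CPM in members against 5.55 ± 1.30 CPM in Flt3-low cells, SD, n = 4 mice), and Slc16a11, a member of the monocarboxylate transporter family (34.8 ± 28.6 against 10.9 ± 8.0 CPM). Slc16a11 also differed between the genotypes, as given with the genotype comparison. Ncf1, the p47 subunit of the phagocyte oxidase, averaged 23.3 ± 4.4 CPM in members and 8.33 ± 1.71 CPM in Flt3-low cells. The largest falls were in Car1, an erythroid carbonic anhydrase, at 2.93 ± 1.56 CPM in members against 115 ± 70 CPM in Flt3-low cells, and in Cavin2, a caveola protein, at 1.03 ± 0.81 against 29.8 ± 9.7 CPM. Gata1, the master factor of erythroid and megakaryocyte genes, averaged 2.28 ± 2.61 against 24.5 ± 5.8 CPM. Aqp1, a water channel, Gp5, a platelet glycoprotein, Mfsd2b, a sphingosine-1-phosphate exporter of red cells and platelets, and Aldh1a1, a retinaldehyde dehydrogenase, fell by 2.59, 2.54, 2.25 and 2.38 on the log2 scale (edgeR adjusted p of 4.8e-07 or less for each).

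Of the genes of the antibody targets other than Flt3, Cd48 rose and Itga2b and Slamf1 fell. Cd48 rose to 207, 206, 210 and 179 CPM in members of the 2 Helios-deficient and 2 wild-type mice, against 121, 108, 144 and 140 CPM in Flt3-low cells (log2 fold change 0.63, SE 0.07, edgeR adjusted p = 5.0e-11). Itga2b fell to 19.1 ± 3.3 CPM in members, against 67.4 ± 7.4 CPM in Flt3-low cells (log2 fold change -1.76, SE 0.15). Slamf1, which encodes the stem cell antigen CD150, was counted in the members of 1 mouse only, at 2.58 CPM in a wild-type mouse, and averaged 9.74 ± 1.44 CPM in Flt3-low cells (log2 fold change -3.14, SE 0.52, edgeR adjusted p = 3.6e-06).

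Gene lists put these calls in order. Of the 26 lymphoid priming genes, 15 were tested, 9 rose, none fell and the median log2 fold change was 0.49, against 0.003 over all genes tested. Risers included Cd27, a TNF receptor family member (257 ± 19 CPM in members against 191 ± 12 CPM in Flt3-low cells), Lsp1, a leukocyte actin-binding protein (161 ± 12 against 113 ± 17 CPM), and Notch1, the receptor that drives T cell fate (19.1 ± 7.7 against 7.64 ± 1.001 CPM). The list holds Satb1 and Wfdc17, which are also label markers. Of 14 granulocyte-monocyte genes tested, 7 rose and 1 fell. Mpo, the myeloperoxidase of granules, averaged 281 ± 55 CPM in members against 136 ± 30 CPM in Flt3-low cells (log2 fold change 1.06, SE 0.06), and Cebpa, a myeloid transcription factor, 38.4 ± 9.3 against 22.8 ± 4.1 CPM. Ms4a3, a granulocyte-monocyte progenitor marker, was the one that fell (log2 fold change -0.88, SE 0.25, edgeR adjusted p = 0.016).

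The megakaryocyte list had 12 falls and no rise among 16 genes tested (median -1.52), and the erythroid list 10 falls and no rise among 14 (median -1.54). The stem cell list was mixed: 12 of 23 tested genes fell and 4 rose, with a median of -0.44. Gata2, a stem and progenitor factor, fell to 57.7 ± 5.4 CPM in members against 137 ± 5 CPM in Flt3-low cells. Mllt3, a chromatin reader that maintains stem cells, fell to 22.3 ± 5.6 against 55.2 ± 11.3 CPM, and Esam, an adhesion molecule of stem cells, to 32.0 ± 5.1 against 67.4 ± 12.99 CPM. The 4 that rose were Hlf, a stem cell transcription factor, Ly6a, which encodes Sca1, Gcnt2, a glycosyltransferase gene, and Ifitm1, an interferon-induced membrane protein gene. Hlf averaged 183 ± 14 CPM in members and 143 ± 17 CPM in Flt3-low cells (log2 fold change 0.36, SE 0.07, edgeR adjusted p = 2.6e-05).

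Transcription factors of fate choice went both ways. Of 37 tested, 13 rose, among them Sox4 (0.47), Irf8 (1.36), Gfi1, Spi1, Hoxa9, Lmo2 and Ikzf1, and 7 fell, among them Gata2 (-1.20), Gata1 (-3.65), Tal1, Fli1 and Zfpm1 (log2 fold changes). Irf8, a factor of dendritic cells and monocytes, stood at 50.2 and 13.5 CPM in Helios-deficient and 23.2 and 40.2 CPM in wild-type members, against 10.6 to 12.6 CPM in Flt3-low cells. Its call was lost in cells of 5000 to 12000 UMIs (edgeR adjusted p = 0.15). Among 34 genes of FLT3 signalling that were tested, 2 rose and 3 fell, with a median of -0.08. Socs2, a feedback inhibitor of cytokine signalling, fell to 7.38 ± 1.88 CPM in members against 21.1 ± 5.4 CPM in Flt3-low cells. Flt3l, the gene of the ligand, averaged 6.64 ± 2.04 against 12.6 ± 1.6 CPM and passed the threshold (log2 fold change -0.92, edgeR adjusted p = 0.032), but not without the second Helios-deficient mouse (0.19) or the first wild-type mouse (0.25). Pim1, a kinase induced by cytokine receptors, rose by 0.19 on the log2 scale and lost its call without any of 3 of the mice.

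None of 30 S phase genes passed in either direction, and 1 of 30 G2 and M phase genes did (Cks2, -0.19). Beside their counts, the medians of these lists were -0.0008 and -0.07. The dendritic cell list had 3 rises and 2 falls among 7 genes tested. Its Ly6d, a surface protein of early B lineage and plasmacytoid cells, had 0 UMIs in members and 151 in Flt3-low cells, at least 11.7-fold lower against a floor of 3 counts over all members. Those Ly6d counts lay almost wholly in the second Helios-deficient and the first wild-type mouse (5.36 and 23.4 CPM), the same mice whose Flt3-low cells carried B cell transcripts, as given with the other cell types.

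The size of this comparison depended on the settings. DESeq2 called 222 genes, of which 220 were among the 626, and 312 were called among cells of 5000 to 12000 UMIs. The count was 395 without the second Helios-deficient mouse and 406 without the first wild-type mouse. Of 53 named and called genes, 29 kept their call under all alternatives. With at least 1 of the mice left out, 11 lost it, namely Btg2, Cks2, Flt3l, Grb2, Ifi27, Myc, Nfkbia, Pim1, Sdc1, Wfdc17 and Zfp36. Zfp36 lost its call whichever mouse was left out.

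Members were then tested against Flt3-high cells with Dntt or Elane, which share the Flt3 threshold. In this direction the lymphoid genes were lower and the stem cell genes higher in members. The rule took part here, because that class held 7062 UMIs of Dntt (975 CPM) and 75 of Elane (10.4 CPM), so a lymphoid gene helped to choose it. Esam, the adhesion molecule that fell against Flt3-low cells, stood at 36.7, 35.0, 25.1 and 31.2 CPM in members of the 2 Helios-deficient and 2 wild-type mice, against 12.3, 14.4, 7.23 and 8.52 CPM in Flt3-high cells with Dntt or Elane. The classes did not overlap (log2 fold change 1.59, SE 0.22, edgeR adjusted p = 1.1e-10). Cnn3, calponin 3, stood at 19.3, 13.5, 15.5 and 12.5 CPM in members, against 76.3, 96.5, 90.1 and 71.4 CPM in the other class (log2 fold change -2.54, SE 0.16, edgeR adjusted p = 1.6e-43). Of 9167 genes tested, 292 were higher in members (3.19%) and 362 lower (3.95%), together 654 (7.13%).

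Among the largest rises were Ptgs1, which encodes cyclooxygenase 1 (36.9 ± 7.9 CPM in members against 9.86 ± 3.53 CPM in Flt3-high cells with Dntt or Elane, SD, n = 4 mice), Csgalnact1, an enzyme of chondroitin sulfate synthesis (16.8 ± 6.2 against 4.95 ± 2.21 CPM), and Scarf1, a scavenger receptor (19.7 ± 3.7 against 6.13 ± 2.49 CPM). Phlda2, an imprinted gene, and the imprinted noncoding RNA Meg3 rose by 1.59 and 1.54 on the log2 scale, and the unnamed transcript 4930519L02Rik by 1.60. Meg3 was uneven among members, at 29.0 and 22.9 CPM in Helios-deficient and 3.87 and 11.6 CPM in wild-type mice. The largest falls were in Cox6a2, a cytochrome c oxidase subunit, at 1.62 ± 1.62 against 33.5 ± 12.2 CPM, and in Arpp21, a cyclic AMP-regulated phosphoprotein expressed in early lymphoid cells, at 1.03 ± 0.81 against 20.3 ± 3.3 CPM. Tmem108, Ly86 (the partner of a B cell Toll-like receptor homologue), Ccr9 (a homing receptor of thymus-seeding progenitors), Cd33 (a sialic acid-binding receptor) and Evl (an actin regulator) fell by 3.61, 2.97, 2.44, 2.12 and 1.96 on the log2 scale.

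Of 20 lymphoid priming genes tested here, 15 fell and 1 rose, with a median of -0.90. Il7r, Rag2, Ccr7, Blnk, Mef2c and Ikzf1 were among those that fell, and Ltb, the lymphotoxin beta gene, was the one that rose. Cd52, a lymphocyte surface glycoprotein, averaged 203 ± 56 CPM in members against 340 ± 57 CPM in Flt3-high cells with Dntt or Elane (log2 fold change -0.76, SE 0.06). Of 16 stem cell genes tested, 14 rose and none fell (median 0.67), Hlf by 0.99 (SE 0.08), Gata2 by 0.96 and Mllt3 by 0.93. Hlf thus stood above both neighbouring classes, at 183 ± 14 CPM in members against 143 ± 17 and 90.6 ± 14.0 CPM. Of 9 megakaryocyte genes tested, 5 rose and none fell. Of 17 granulocyte-monocyte genes, 2 rose and 5 fell; Mpo fell by 0.26 and Prtn3, a neutrophil granule protease gene, rose by 0.46 on the log2 scale.

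Cell cycle genes differed in this comparison. Of 30 G2 and M phase genes, 20 fell and none rose (median -0.44), and of 30 S phase genes 6 fell and none rose (median -0.18). Mki67, the proliferation antigen Ki-67, averaged 35.2 ± 6.8 CPM in members and 55.2 ± 13.1 CPM in Flt3-high cells with Dntt or Elane (log2 fold change -0.64, SE 0.15, edgeR adjusted p = 0.00049). Members were also shallower, with medians of 8518.5 and 8776 UMIs in Helios-deficient mice, against 11687 and 10673 UMIs in Flt3-high cells with Dntt or Elane of the same mice. In the wild-type mice the medians were 7884 and 7767.5 UMIs in members and 8283 and 8028 in the other class. The summed G2 and M phase list was at 1435 and 1714 CPM in Helios-deficient members, against 2236 and 2146 CPM in the other class. In wild-type mice it was at 1157 and 1486 against 1670 and 1888 CPM. Whether depth had a part in the differences of this list was not tested. Ikzf2 itself rose in members, to 85.0 ± 13.5 against 57.1 ± 6.9 CPM (log2 fold change 0.54, SE 0.11, edgeR adjusted p = 7.9e-05), with adjusted p of 0.16 with DESeq2 and 0.13 in cells of 5000 to 12000 UMIs. DESeq2 called 137 genes in all, and without the first wild-type mouse 308 were called.

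**Figure D3:**
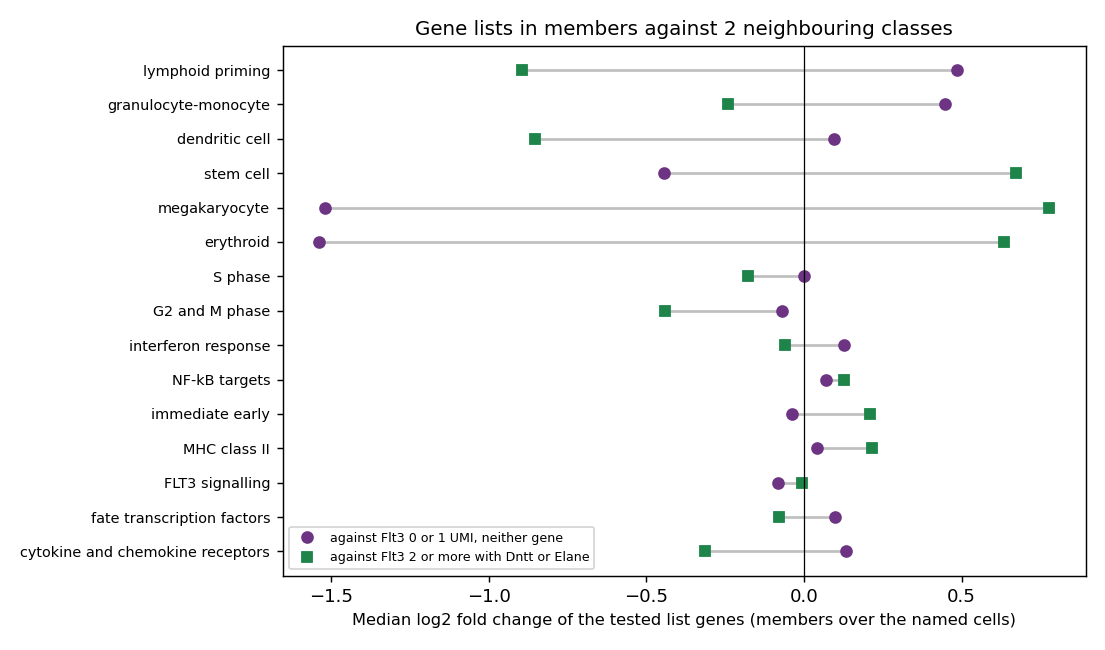
Median log2 fold change of the tested genes of 15 lists, for members over Flt3-low cells (circles) and for members over Flt3-high cells with Dntt or Elane (squares). The lymphoid priming list has 0.49 and -0.90, the stem cell list -0.44 and 0.67 and the megakaryocyte list -1.52 and 0.78; both comparisons share the member cells.

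The other lists gave fewer calls, apart from receptor and dendritic cell genes. For interferon response genes 2 of 22 rose over Flt3-low cells, Rtp4 and Ifi27, and 1 rose and 2 fell of 23 over Flt3-high cells with Dntt or Elane. For NF-kB targets, Ccl3 rose and Nfkbia, an NF-kB inhibitor gene, fell over Flt3-low cells, among 12 tested. For immediate early genes, which also respond to handling of cells, 3 of 14 rose, namely Btg2, Myc and Zfp36, and each of these calls was lost with DESeq2. For MHC class II genes, H2-DMa rose and Cd74 fell among 7. The Cd74 fold change was 0.03 on the log2 scale without cells carrying transcripts of other types and 0.24 in cells of 5000 to 12000 UMIs (edgeR adjusted p of 0.97 and 0.94), and the Flt3-low cells of the second Helios-deficient and first wild-type mouse carried 2222 and 8239 CPM of the B cell list. Of 22 cytokine and chemokine receptor genes, 4 rose (Notch1, Il10rb, Il6ra and Csf3r) and 2 fell (Epor among them) over Flt3-low cells, while 1 of 24 rose and 8 fell over Flt3-high cells with Dntt or Elane, with medians of 0.13 and -0.31. The 8 were Il7r, Ccr9, Notch1, Ccr7, Ifnar2, Csf1r, Il10rb and Cxcr4. Of 8 dendritic cell genes tested over Flt3-high cells with Dntt or Elane, 5 fell (Ly6d, Tcf4, Cst3, Id2 and Bst2) and none rose, with a median of -0.85.

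Against all 3064 other kept cells, fewer genes differed. Those cells hold both neighbouring classes. Of 10695 genes tested, 84 were higher in members (0.785%) and 126 lower (1.18%), together 210 (1.96%). Hlf showed the smallest adjusted p of the named rises, at 162, 191, 193 and 186 CPM in members of the 2 Helios-deficient and 2 wild-type mice, against 104, 121, 131 and 140 CPM in the others (log2 fold change 0.55, SE 0.07, edgeR adjusted p = 1.5e-10). The members of every mouse lay above the other cells of every mouse. Stxbp4, a syntaxin-binding protein gene, rose to 60.5 ± 8.2 against 39.9 ± 5.5 CPM (log2 fold change 0.64, SE 0.11). Itgb5 (1.01), Tnfrsf13c, the BAFF receptor gene (0.79), Diexf (0.75), Tbcd, a tubulin cofactor gene (0.70), Ccl3 (0.66), Pglyrp1, a peptidoglycan recognition gene (0.60), Actn1 (0.54) and Mgst1 (0.54) also rose. These 8 calls were each lost with at least 1 of the mice left out, those of Diexf and Actn1 whichever mouse it was. Tbcd lost its call without the first Helios-deficient mouse or either wild-type mouse. Pcp4l1 and Gm20342 rose by 0.53 and 0.52 on the log2 scale. The calls of these 2 genes and of the 8 above were lost with DESeq2.

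The named falls against all other cells included genes of other lineages, but not only those. Slamf1 also fell. Of 23 stem cell genes tested here, 7 fell, Slamf1, Gata2, Mllt3 and Esam among them, and 4 rose, Hlf among them. Aqp1, Gp5, Cavin2 and Tgm2, a transglutaminase gene, fell by 2.08, 2.01, 4.06 and 1.55 on the log2 scale and kept their calls under all alternatives. Pf4 and Car1 fell by 2.77 and 4.45, Apoe by 1.35, the mast cell carboxypeptidase gene Cpa3 by 1.71, the metallothionein gene Mt1 by 1.72 and the tubulin gene Tuba8 by 1.75. Ly6c2 and Ms4a3, both of the granulocyte-monocyte lineage, fell by 5.52 and 1.41, and here the rule took part, because cells with Elane are among the other cells. DESeq2 called 50 genes, 46 were called without the mouse as a block, 128 without the second Helios-deficient mouse and 122 without the first wild-type mouse.

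The surface tags were measured in a library of their own and did not enter the rule. The CD135 tag, an antibody readout of Flt3 protein, barely followed Flt3 RNA, and its range was narrow. In the first wild-type mouse its lower and upper quartiles were 33 and 47 UMIs in members and 32 and 43 UMIs in other kept cells. The CD48 quartiles in members of that mouse were 84.5 and 188 UMIs. How much of the CD135 tag was background was not tested. Its mean log2(UMIs + 1) was 5.30 and 5.16 in members of Helios-deficient mice and 5.35 and 5.41 in members of wild-type mice, against 5.28, 5.26, 5.26 and 5.30 in the other kept cells of the same mice. The difference averaged 0.03 ± 0.10 (SD, n = 4 mice), was positive in 3 of 4 mice and had an exact sign-flip permutation p of 0.625 (two-sided), where 4 mice cannot go below 0.125. Against Flt3-low cells the difference was 0.07 ± 0.10 (exact p = 0.375). Against Flt3-high cells with Dntt or Elane, which share the Flt3 threshold, it was -0.07 ± 0.07, negative in 4 of 4 mice (exact p = 0.125). This sign turned on a centred log ratio over the 4 tags, where it was 0.03 ± 0.02 and positive in 4 of 4 mice (exact p = 0.125). That ratio subtracts the mean of the 4 tags, so the lower CD48 tag of members against this class shifts the other tags up. The median CD135 tag was 37 UMIs in cells with 0 or 1 Flt3 UMI, 38 with 2, 39 with 3, 42.5 with 4 and 41.5 with 5 or more.

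CD48, a surface protein gained as stem cells become multipotent progenitors, differed more. Its mean log2(UMIs + 1) in members was 6.79 and 6.84 in Helios-deficient mice and 6.98 and 6.99 in wild-type mice, against 6.46, 6.40, 6.55 and 6.66 in Flt3-low cells. The difference was 0.38 ± 0.06, positive in 4 of 4 mice (exact sign-flip p = 0.125, the smallest the design allows). Against Flt3-high cells with Dntt or Elane it was -0.42 ± 0.07, negative in 4 of 4 mice (exact p = 0.125), and against all other cells 0.11 ± 0.05 (exact p = 0.125). CD150 was lower than in Flt3-low cells in 4 of 4 mice, with a difference of -0.13 ± 0.07, and CD41 likewise with -0.07 ± 0.05 (exact p = 0.125 for each). Against Flt3-high cells with Dntt or Elane CD41 differed by 0.08 ± 0.05 (exact p = 0.125) and CD150 by 0.01 ± 0.07 (exact p = 0.75). On a centred log ratio over the 4 tags, CD150 differed from that class by 0.11 ± 0.03 and CD41 by 0.18 ± 0.07, both positive in 4 of 4 mice (exact p = 0.125 for each). The order of the tag means was thus the order of the RNA for CD48 and CD41. None of these 12 comparisons of tags could reach 0.05, and no adjusted value could be smaller.

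The share of cells that were members was lower in both Helios-deficient mice than in both wild-type mice. With 2 mice against 2 the test cannot decide whether the genotypes differed, so the shares are a description. The members were 8.62% of kept cells in both Helios-deficient mice (exact binomial 95% intervals 6.42 to 11.3% and 6.79 to 10.7%) and 14.6% and 12.7% in the wild-type mice (12.6 to 16.7% and 10.6 to 15.0%). The difference was -5.01 percentage points, with both Helios-deficient mice below both wild-type mice, and an exact permutation p of 0.333 (two-sided), which is the smallest that 2 mice against 2 allow. Members in Helios-deficient mice were not shallower, with median UMIs of 8518.5 and 8776 against 7884 and 7767.5 in wild-type mice. After thinning every cell to 4000 UMIs, which dropped 12 and 15 shallower cells of Helios-deficient mice and 31 and 24 of wild-type mice, the shares were 4.77% and 4.45% in Helios-deficient and 8.39% and 7.19% in wild-type mice. As a share of cells without Dntt and Elane they were 13.01% and 13.1% in Helios-deficient mice, against 20.6% and 18.8% in wild-type mice. Flt3-low cells made up 57.6% and 57.2% of kept cells in Helios-deficient and 56.1% and 54.8% in wild-type mice. Flt3-high cells with Dntt or Elane were also fewer, at 17.1% and 19.5% in Helios-deficient and 20.8% and 21.2% in wild-type mice. The remaining cells, which had Dntt or Elane and fewer than 2 Flt3 UMIs, were 16.7% and 14.7% in Helios-deficient and 8.60% and 11.3% in wild-type mice. The lower share was thus not shown to be particular to members. Since the share rests on the genes of the rule, fewer such cells and fewer Flt3 transcripts per cell cannot be told apart.

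**Figure D4:**
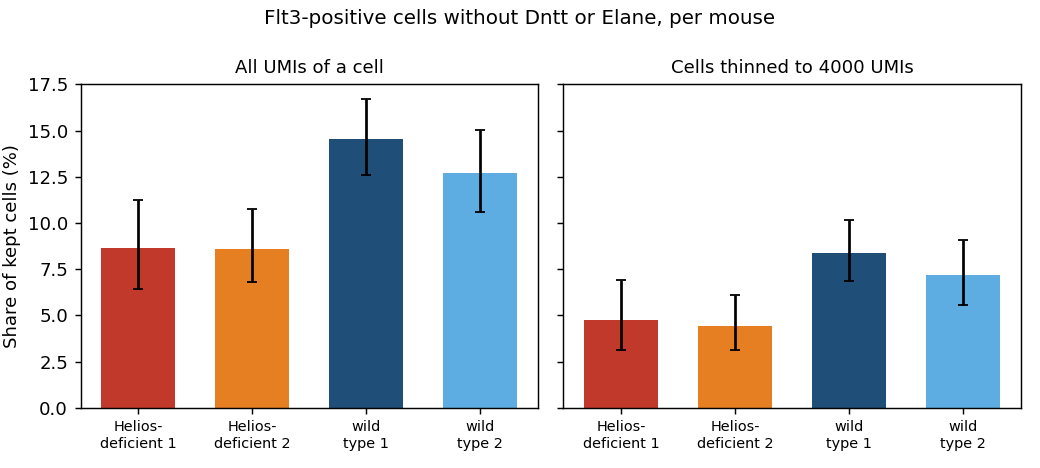
Share of kept cells that met the member rule, in percent, per mouse with exact binomial 95% intervals, from all UMIs (left) and after thinning to 4000 UMIs (right). Both Helios-deficient mice lie below both wild-type mice, at 8.62% each against 14.6% and 12.7% on the left.

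Within the members, few genes passed the test between genotypes. The targeted gene comes first: Ikzf2 stood at 81.1 and 105 CPM in Helios-deficient and 78.0 and 75.9 CPM in wild-type members (log2 fold change 0.30, SE 0.18, edgeR adjusted p = 0.85). The deleted part of Ikzf2 is not stated and reads here come from the 3 prime end, so this level checks neither the deletion nor the hashtag labels. Ctse, which encodes the protease cathepsin E, was at 11.6 and 5.39 CPM in Helios-deficient members and 81.2 and 93.7 CPM in wild-type members, far outside the spread within a genotype (log2 fold change -3.43, SE 0.33, edgeR adjusted p = 3.8e-07). Of 7774 genes tested, 4 were higher (0.0515%) and 8 lower (0.103%) in Helios-deficient members, together 12 (0.154%).

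Slc16a11 was at 11.6 and 9.42 CPM in Helios-deficient and 52.2 and 66.0 CPM in wild-type members (log2 fold change -2.48, SE 0.34, edgeR adjusted p = 0.00014). Lat2, a membrane adaptor of immune receptor signalling, was at 42.5 and 48.5 CPM in Helios-deficient members, against 124 and 118 CPM in wild-type members (log2 fold change -1.40, SE 0.19, edgeR adjusted p = 0.00014). Lat2 also rose in members over Flt3-low cells (log2 fold change 1.03), where it was at 25.6 and 29.1 CPM in Helios-deficient and 56.8 and 57.8 CPM in wild-type mice. Cd52 was at 153 and 163 CPM in Helios-deficient members, against 227 and 271 CPM in wild-type members. Acadl, a mitochondrial fatty acid dehydrogenase gene, was at 36.7 and 44.4 CPM in Helios-deficient members, against 96.7 and 80.3 CPM in wild-type members. Acadl spans 66830839 to 66863309 on chromosome 1, near the targeted Ikzf2 at 69531207 to 69687351 on the same chromosome. An effect of the altered locus on its neighbour cannot be told apart here from an effect of lost Helios. The noncoding Gm47283 and Malat1 fell by 0.91 and 0.26 on the log2 scale.

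Selp, which encodes the adhesion receptor P-selectin, was at 21.2 and 36.4 CPM in Helios-deficient and 9.02 and 5.35 CPM in wild-type members (log2 fold change 1.99, SE 0.40, edgeR adjusted p = 0.025). Ifitm1, which like Ifitm3 encodes an interferon-induced antiviral membrane protein, was at 1898 and 1523 CPM in Helios-deficient members, against 1176 and 1088 CPM in wild-type members. Ifitm3 was at 1442 and 1239 CPM in Helios-deficient members, against 963 and 990.5 CPM in wild-type members, and both rose, by 0.59 and 0.45 on the log2 scale. Tuba1b, an alpha-tubulin gene, rose by 0.37. Tuba1b, Ifitm1 and Ifitm3 have close paralogues between which counting may split reads, so their levels are uncertain to that extent. Both mice of a genotype stood apart from both of the other for all 12 genes, as they did for 36.1% of all genes tested. Ctse, Slc16a11, Lat2 and Ifitm3 kept their calls under all alternatives. Acadl, Cd52, Gm47283, Malat1, Selp and Tuba1b lost theirs with DESeq2 and also with at least 1 of the mice left out. The count of calls was 21 without the first and 33 without the second Helios-deficient mouse, where the lone mouse left is assumed to vary like the wild-type pair.

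**Figure D5:**
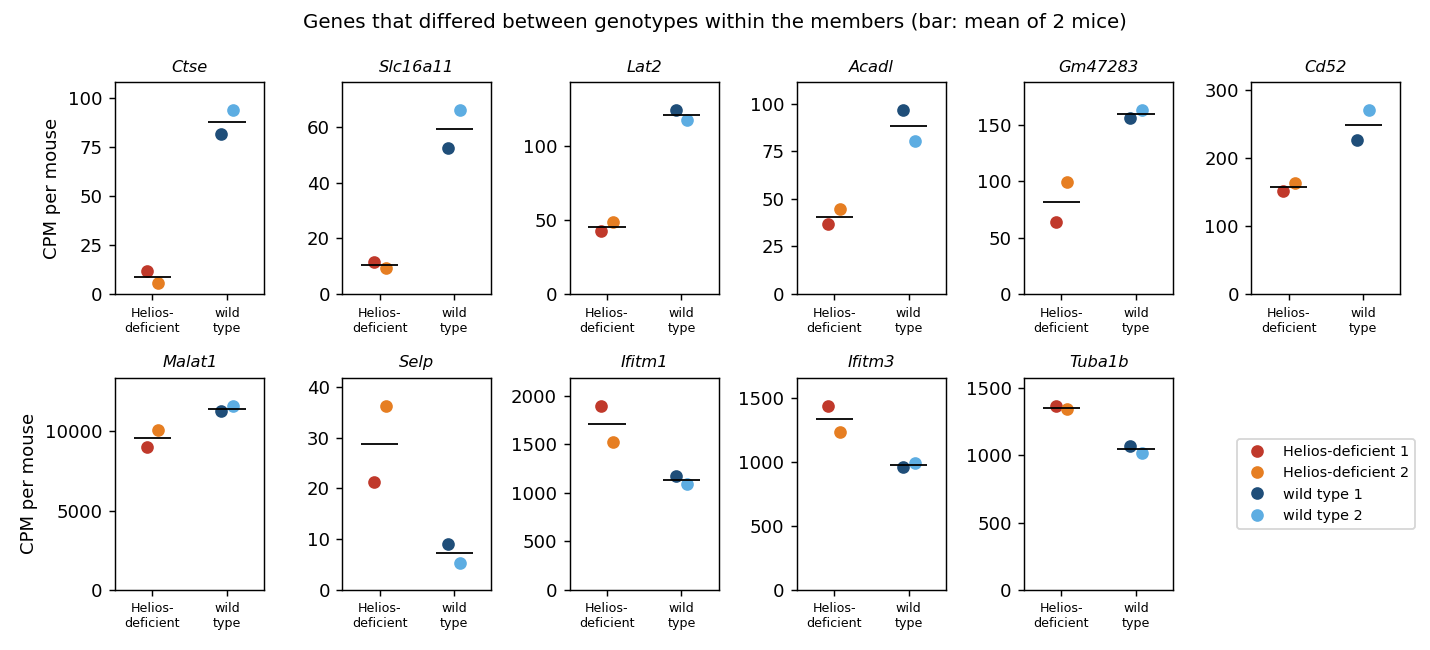
CPM of 11 genes called between genotypes within the members, Helios-deficient left and wild type right, 1 point per mouse with the mean of 2 mice as a bar, linear axes from 0. Ctse, Slc16a11 and Lat2 show the widest gaps relative to the spread within a genotype.

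The member markers did not pass between genotypes. Satb1 was at 42.5 and 44.4 CPM in Helios-deficient and 80.6 and 91.0 CPM in wild-type members (log2 fold change -0.96, SE 0.21, edgeR adjusted p = 0.054). The log2 fold changes of Wfdc17, Wfdc18, Sdc1 and Ccl3 were 0.34, -0.49, -0.66 and -0.42, with standard errors of 0.29 to 0.42 and edgeR adjusted p of 0.86 or more. Of 15 lymphoid priming genes tested, 1 fell, Cd52, and the median was -0.16. Of 15 stem cell genes, 2 rose, Ifitm1 and Ifitm3, and the median was -0.08. No gene of the FLT3 signalling, fate transcription factor, S phase, G2 and M phase, interferon response or receptor lists passed. The medians of the S phase and G2 and M phase lists were 0.25 and 0.33, against -0.0002 over all genes tested. The CD135 tag of members was 5.30 and 5.16 in Helios-deficient and 5.35 and 5.41 in wild-type mice, a difference of -0.15 (exact permutation p = 0.333, two-sided), and the CD48 tag differed by -0.17 (exact p = 0.333).

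Whether the genotype difference in members was unlike that in the other kept cells was tested with an interaction term. Of 10695 genes, 1 had a higher difference in members (0.00935%), Wfdc17, and 2 a lower one (0.0187%), Mpo and Igha, together 3 (0.0281%). The count was 5 without the first and 8 without the second Helios-deficient mouse, and 8 without the second wild-type mouse. For Ctse, Slc16a11, Lat2 and Selp the interaction was -0.70, -1.005, -0.81 and 0.51 on the log2 scale, with edgeR adjusted p of 0.38 or more. For Ctse the other kept cells stood at 8.44 and 14.5 CPM in Helios-deficient and 80.9 and 80.1 CPM in wild-type mice, so a low Ctse level was not shown to be particular to members.

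Transcripts of other cell types were looked for in members. The macrophage list of 14 genes summed to 32.8 to 96.4 CPM over the mice in members and 31.8 to 64.6 CPM in the other kept cells, with Adgre1 and Mertk at 0 in members. At least 3 UMIs of that list were found in 5.91% of members and 3.20% of other cells. The B cell list of 12 genes summed to 77.2 to 92.8 CPM in members, with 7 genes at 0, among them Cd79a, Ms4a1 and Pax5, whereas the other cells of the second Helios-deficient and first wild-type mouse carried 1278 and 5136 CPM. At least 3 UMIs of the T and NK cell list of 12 genes were found in 39.2% of members and 34.5% of other cells, with 6 genes at 0 in members, among them Cd3e, Cd3g and Trbc1. T and NK cell, mature neutrophil, mast cell and stromal lists gave 260, 5.85, 14.7 and 66.4 CPM in members and 268, 8.61, 39.0 and 65.9 CPM in other cells. In all, 32 members (7.88%) and 5.22% of the other cells carried transcripts of another type above the set minimum (3 UMIs of the macrophage, B cell or neutrophil list, or 20 of hemoglobin), and without them 555 genes were called against Flt3-low cells, 597 against Flt3-high cells with Dntt or Elane, 186 against all other cells and 9 between genotypes.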

How the data were processed

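The deposited matrix holds raw UMI counts per gene and tag, per the file headers and the whole values; the authors applied no scaling to these counts. Cell Ranger, Seurat 3.0.0 and build mm10 are named in the submitters' processing notes, and software 3.0.2 in the matrix header. Hashtag names in the files were matched to the tags in the labels by the maker's numbering of mouse hashtags. How hashtags were called is not given in the sources used here. The authors' hashtag calls and list of kept barcodes were used as deposited; doublets between mice were absent from that list, and no doublet caller was run.

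UMIs were summed per mouse and class and tested with edgeR 4.0.16 (R 4.3.3; quasi-likelihood, robust, TMM, default count filter), with the mouse as a block where classes of the same mice were compared, and with Benjamini-Hochberg adjustment at 0.05. Flt3, Dntt and Elane stayed in library sizes and out of the calls. A standard error is the fold change divided by the root of its F statistic. On simulated data with 100 genes changed 2-fold, 91 were recovered for members against Flt3-low cells, 92 against Flt3-high cells with Dntt or Elane, 97 against other cells, 55 between genotypes and 53 for the interaction. With 100 genes changed 1.5-fold, 66, 55, 71, 25 and 25 were recovered in that order. Unchanged genes called were 9, 7, 3, 4 and 7. The simulated sums had no differences in level between mice and used the dispersion trend, and only genes above 10 CPM were changed. Recovery in the real data may therefore be lower. Alternatives were DESeq2 1.42.0, RLE size factors, no count filter, no robust option, other Flt3 thresholds, cells of 5000 to 12000 UMIs, no mouse block, a centred log ratio or medians for the tags, leaving out cells with at least 3 UMIs of the macrophage, B cell (without Igkc) or mature neutrophil list or 20 of hemoglobin, and each mouse left out. Both classes of a mouse come from the same animal, which is where the pairing by mouse comes from.

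Members and gene lists were chosen with earlier results of these data known. Named genes were Flt3, Dntt, Elane, Ikzf2, the label markers and the genes of the antibody targets; the 12 largest rises and falls against other cells and 8 against each narrower class (past 0.05, at least 10 CPM, same direction in 4 mice); up to 10 rises and 10 falls between genotypes with separated mice; up to 4 genes per list with the smallest p against Flt3-low cells; and up to 6 interaction genes. Further members of a list are named from its count. Ensembl and symbol pairs came from the files, and promoter sequences from RefSeq. Where classes of the same mice were compared, p-values set the class difference against a variance fitted by the model, not against the plain spread of the 4 mouse differences. The block removes differences in level between mice. For Pf4 against other kept cells, the edgeR adjusted p was 9.9e-41 with the block and 0.19 without it. The quasi-likelihood fit shares information on variance across genes, so very small p-values do not rest on the 4 mice alone. A standard error can be smaller than the spread of the 4 mouse differences would give, as for Pf4 and Cd48 against Flt3-low cells. Between genotypes within members, p-values set the difference against the spread of mice within a genotype, with the same sharing across genes. The number of cells per mouse limits the precision. Some genes that passed a rule are not reported here.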

Additional observations from a re-analysis of the deposited data

Results flagged for a closer look

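The genotype difference within members differed from that in the other kept cells for 3 genes, by the interaction term of edgeR over 10695 genes.

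For Mpo the interaction was -0.95 on the log2 scale (SE 0.11, edgeR adjusted p = 4.9e-09). It was at 234 and 242 CPM in Helios-deficient and 352 and 297 CPM in wild-type members, while the other kept cells had 366 and 415 CPM in Helios-deficient and 300.6 and 255 CPM in wild-type mice. In Flt3-low cells, which lack Elane like the members, it was at 113 and 108 CPM in Helios-deficient and 160 and 163 CPM in wild-type mice, the same direction as in members. The other kept cells include the cells with Elane, and Elane stood at 182 and 148 CPM in those of Helios-deficient mice, against 66.4 and 7.46 CPM in those of wild-type mice. Its part in the result was not tested. In cells of 5000 to 12000 UMIs the Mpo value was 0.13, with an edgeR adjusted p of 0.99.

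For Wfdc17 the interaction was 0.74 on the log2 scale (SE 0.11, edgeR adjusted p = 5.2e-06). It was at 448 and 407 CPM in Helios-deficient and 254 and 430 CPM in wild-type members, so the groups overlapped in members, and at 254 and 213 CPM in other kept cells of Helios-deficient mice, against 260 and 348 CPM in those of wild-type mice. With Flt3 at 3 UMIs or more the Wfdc17 value was 1.02, with an edgeR adjusted p of 1.0, and none of the 3 calls held under all alternatives.

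For Igha, an immunoglobulin heavy chain gene, the interaction was -5.77 on the log2 scale (SE 0.95, edgeR adjusted p = 0.0074). It stood at 944 CPM in the other cells of the second Helios-deficient mouse and at 2.88 to 4.83 CPM in those of the remaining mice, and at 2.68 to 10.8 CPM in members. Without the second Helios-deficient mouse the value was 0.79.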

How the results depend on the processing

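Of the named genes' recomputed values, 1632 kept their direction and side of the threshold, 197 fell below it, 19 passed it and 24 changed sign; the causes were not tested. Counts in the order other cells, Flt3-low, Flt3-high with Dntt or Elane, genotype and interaction (210, 626, 654, 12 and 3 as reported) were 50, 222, 137, 6 and 2 with DESeq2, 82, 312, 364, 5 and 6 in cells of 5000 to 12000 UMIs, and 46, 365 and 301 with no mouse block for the first 3. They were 326, 799, 1185, 13 and 11 with Flt3 at 1 UMI or more, and 156, 347, 319, 9 and 7 at 3 or more. The genotype count was 26 with no count filter, and the interaction count 6 without the robust option. Leaving out 1 mouse gave 122 to 174, 395 to 547, 308 to 599, 15 to 33 and 3 to 8 calls. RLE size factors moved no count by over 1.5 times. Without the replicate block by mouse, 46 of the 210, 364 of the 626 and 300 of the 654 calls were shared; genotype comparisons within members have 1 sum per mouse and no block.

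The member share difference of -5.01 points was -9.53 and -2.79 with Flt3 at 1 and 3 UMIs or more, -3.18 after thinning and -6.65 as a share of cells without Dntt and Elane. The CD135 tag difference between genotypes of -0.15 was -0.045 at Flt3 of 1 UMI or more. The CD48 tag difference from other cells of 0.11 was -0.013 there, and the CD41 difference of -0.03 was -0.063 at 3 UMIs or more.

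Signs changed as follows, as log2 fold changes. Against other cells with Flt3 at 1 UMI or more, Wfdc17 was -0.30, Wfdc18 -0.47 and Satb1 -0.32. Sdc1, at -0.10 as reported, was 0.026 with DESeq2, 0.46 at Flt3 of 3 or more, 0.22 in cells of 5000 to 12000 UMIs, 0.16 without cells of other types and 0.051 with no mouse block. Against Flt3-low cells, Pola1 was 0.12 and Dtl 0.045 at Flt3 of 1 or more, Clspn -0.053 at 3 or more, and Cd74, whose fall was called, 0.24 in cells of 5000 to 12000 UMIs and 0.033 without cells of other types. Between genotypes Cd48 was -0.13 at Flt3 of 1 or more. For the interaction, Mpo was 0.13 in cells of 5000 to 12000 UMIs and Igha 1.14 without cells of other types. Leaving out 1 mouse gave ranges that crossed 0 for Satb1 (-0.039 to 0.16) and Sdc1 (-0.19 to 0.062) against other cells, for Wfdc17 (-0.030 to 0.75), Cd48 (-0.019 to 0.19) and Itga2b (-0.27 to 0.31) between genotypes, for Dtl (-0.26 to 0.030) and H2-Ab1 (-0.0042 to 0.25) against Flt3-low cells, and for the Igha interaction (-6.09 to 0.79). Tag differences without cells of other types, an alternative chosen after seeing the data, moved by less than the spread between mice. Depth limits the genotype comparison, where the members of 1 mouse were 48 cells, as does the number of mice.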

Other observations

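Among cells without Dntt or Elane, Ly6a, which encodes Sca1, stood at 143, 151, 170, 219 and 161 CPM at 0, 1, 2, 3 and at least 4 Flt3 UMIs. Cd52 stood at 121, 157, 195, 223 and 280 CPM over the same steps. Mpo stood at 105, 239, 268, 187 and 544 CPM, and its level at 4 or more UMIs was 402 and 165 CPM in the Helios-deficient mice, against 668 and 601 CPM in the wild-type mice. A UMI of Mpo was found in 195 members (48.0%), whose median depth was 10285 UMIs, against 6914 UMIs in members without one.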
